A study of Mus musculus with 6 samples.

Results

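Bone morphogenetic protein (BMP) signalling was examined through 10 genes that act at successive steps of the pathway. These were the ligands Bmp2 and Bmp4, the type I receptors Bmpr1a and Bmpr1b, the secreted antagonists Grem1 and Nog, the target genes Id1, Id2 and Id3, and the inhibitory Smad6. They were taken by name from the 53801 gene identifiers of the count tables, and 8 of the 10 passed the filter on low counts, as did 14531 genes in all. RNA came from MC3T3-E1, a mouse pre-osteoblast line, transduced with a lentivirus carrying either scrambled non-silencing RNA (Control, 3 libraries) or a short hairpin RNA against the histone deacetylase gene Hdac4 (Hdac4-knockdown, 3 libraries). The hairpins were expressed from a human U6 promoter in a vector with ZsGreen1 and puromycin resistance, and all cells of both groups had been selected with 5 µg/ml puromycin for 7 days. The labels describe a line per group with 3 independent RNA samples and do not mention separate transductions, so p-values measure only the spread between these samples.

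BMP ligands are secreted proteins that bring type I and type II receptors together. The type I receptor then phosphorylates Smad1, Smad5 and Smad9, which enter the nucleus with Smad4 and bind the promoters of target genes. The Id genes are classic direct targets. Their products lack a DNA-binding domain and hold basic helix-loop-helix (bHLH) factors away from DNA. Smad6 is also a target and acts back on the receptors and Smads as a brake, while noggin (Nog) and gremlin 1 (Grem1) bind ligands outside the cell. In osteoblast precursors the pathway is known for promoting differentiation into bone-forming cells.

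The promoter windows of 3 members and of Id4, another Id gene, are given here because in Hdac4-knockdown their transcripts were higher (Smad6, Id4), lower (Id2) or not called (Id3). They were taken from RefSeq (GRCm38.p6, 250 bases before to 50 after the annotated start) and are written 5′ to 3′ on the strand of the gene. Capitals mark matches to any of 3 motifs known to be bound by Smad proteins, which were searched on both strands. The Smad6 window lies at chr9:64022010-64022309 on the minus strand, the Id2 window at chr12:25096043-25096342 on the minus strand, the Id3 window at chr4:136143572-136143871 on the plus strand and the Id4 window at chr13:48260866-48261165 on the plus strand.
Smad6: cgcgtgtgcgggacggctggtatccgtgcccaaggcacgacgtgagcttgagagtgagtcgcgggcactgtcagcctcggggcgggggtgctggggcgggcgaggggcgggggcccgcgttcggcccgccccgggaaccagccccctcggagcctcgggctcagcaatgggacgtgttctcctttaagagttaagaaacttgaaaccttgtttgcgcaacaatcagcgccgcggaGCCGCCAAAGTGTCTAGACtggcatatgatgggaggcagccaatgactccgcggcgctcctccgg
Id2: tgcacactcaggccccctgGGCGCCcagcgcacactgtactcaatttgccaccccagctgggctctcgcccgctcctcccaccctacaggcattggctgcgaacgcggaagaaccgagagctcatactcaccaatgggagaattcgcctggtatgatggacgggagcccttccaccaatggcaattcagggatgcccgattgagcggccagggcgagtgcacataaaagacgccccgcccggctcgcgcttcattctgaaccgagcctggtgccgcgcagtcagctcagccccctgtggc
Id3: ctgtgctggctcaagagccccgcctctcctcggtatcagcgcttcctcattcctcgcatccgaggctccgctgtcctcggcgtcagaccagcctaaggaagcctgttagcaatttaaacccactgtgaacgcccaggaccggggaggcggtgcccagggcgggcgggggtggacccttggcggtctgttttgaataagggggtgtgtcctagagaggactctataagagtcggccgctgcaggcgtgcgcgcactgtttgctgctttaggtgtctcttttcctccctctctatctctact
Id4: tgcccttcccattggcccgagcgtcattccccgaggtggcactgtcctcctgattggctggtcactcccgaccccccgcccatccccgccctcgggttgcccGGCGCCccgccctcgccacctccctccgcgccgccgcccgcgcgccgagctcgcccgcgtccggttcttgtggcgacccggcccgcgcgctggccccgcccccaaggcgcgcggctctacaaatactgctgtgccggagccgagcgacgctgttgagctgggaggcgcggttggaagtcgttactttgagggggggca

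Windows were found for 7 of the 10 members, namely Bmp4, Bmpr1a, Bmpr1b, Grem1, Id2, Id3 and Smad6. The palindrome GTCTAGAC, at position -4 from the start of Smad6, was present in no other of these members and in 0.213% of all 32851 windows of the same length. The composite motif, GNCGNC followed after 5 bases by GTCT, was likewise matched only in Smad6 among the members, at position -15, and in 0.667% of all windows. Its GTCT is shared with the palindrome. The GC-rich motif GGCGCC was matched in 3 members, at position -231 in Id2, -198 in Bmpr1a and -78 in Grem1, and also at -148 in Id4, against 11.9% of all windows. Bmp4, Bmpr1b and Id3 held none of the 3 motifs. The windows shown were rich in GC, with 66.3% for Smad6, 63.3% for Id2, 60.0% for Id3 and 73.3% for Id4 against a median of 52.7% over all windows. Those of Bmpr1a and Grem1 held 79.3% and 70.7% GC. The 11.9% for GGCGCC is a share over windows of any GC content, so it is not matched to these members. Such matches describe the letters of the window and are not measurements of binding.

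Each library held between 29096544 and 31651826 counts on genes. Levels are given as CPM, the counts of a gene relative to the normalized size of its library, with mean ± SD of 3 libraries, and as CPM per kilobase of exon (FPKM) wherever genes are compared with each other. Hdac4 itself was at 40.3 ± 0.412 CPM in Control and 29.6 ± 0.981 CPM in Hdac4-knockdown (log2 fold change -0.44, SE 0.057, adjusted p = 8.98e-07 by the quasi-likelihood test of edgeR), and 3536 of its 15813 exon bases are shared with Gm26720. Differences between the groups were widespread. Of all genes tested, 38.0% were called higher and 37.1% lower in Hdac4-knockdown (adjusted p below 0.05 and log2 fold change beyond 0.05), 16.5% were higher and 10.6% lower beyond a log2 fold change of 1, and the libraries of the 2 groups did not overlap for 76.8%.

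Marker genes did not follow the pre-osteoblast label in all libraries, since the Control libraries held myoblast and neurofilament transcripts, and the plot of marker levels shows this for 3 of the lists. All 4 skeletal myoblast markers were lower in Hdac4-knockdown, and their summed level was 828 to 867 CPM in Control and 111 to 126 CPM in Hdac4-knockdown. Myod1, the myogenic bHLH factor that Id proteins are known to restrain, was at 67.9 CPM in Control and 8.96 CPM in Hdac4-knockdown, and the muscle filament gene Des at 737 and 102 CPM. All 6 proliferation markers were lower as well (summed 2352 to 2408 CPM in Control, 933 to 982 CPM in Hdac4-knockdown). Of 7 osteoblast markers, Col1a1, Sp7 and Runx2 were higher and Spp1 was lower, with summed levels of 3547 to 3581 CPM and 12901 to 13514 CPM. Col1a1, the main collagen gene of bone, was at 338 CPM in Control and 11015 CPM in Hdac4-knockdown, while the libraries of Runx2 overlapped between the groups. Sp7, with 4, 7 and 2 reads in the Control libraries, passed the count filter only through Hdac4-knockdown. The osteoblast markers Alpl, Bglap and Ibsp were too low to be tested. The myoblast, proliferation and Col1a1 levels separated all 3 Control from all 3 Hdac4-knockdown libraries, so no comparison without the libraries concerned was possible. These differences cannot be told apart from the grouping, and their part in the results on BMP genes was not tested. Fewer cells of a type and less RNA per cell also cannot be told apart in bulk RNA.

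**Figure D1:**
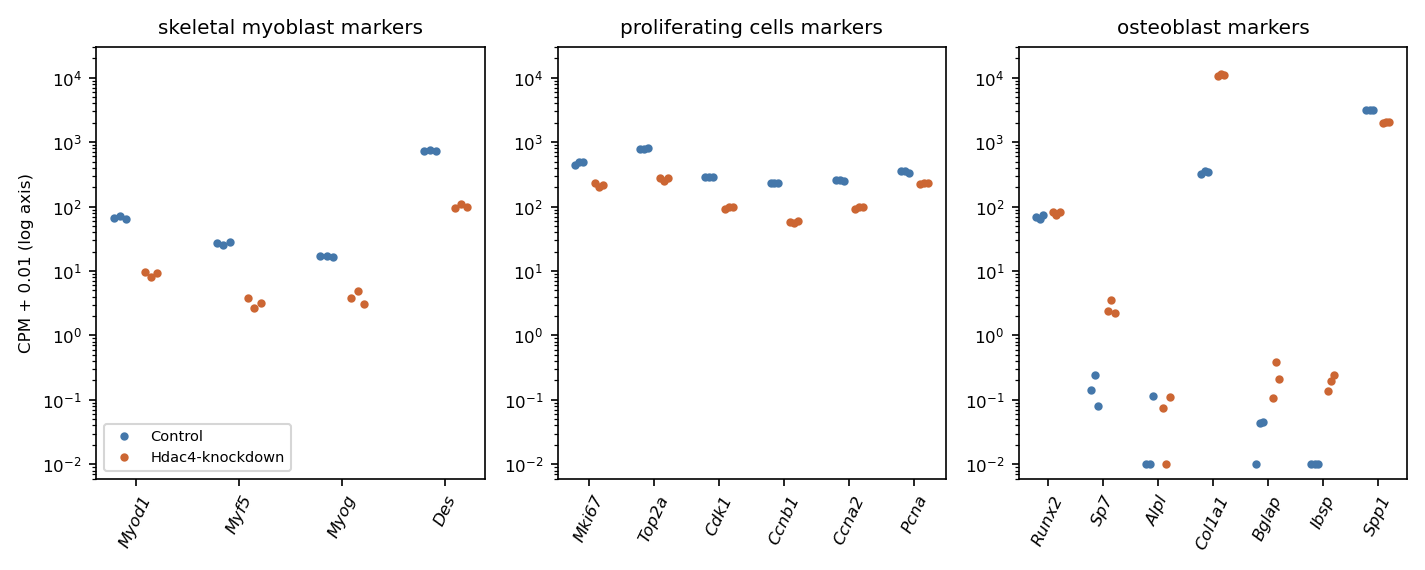
Levels of skeletal myoblast, proliferation and osteoblast marker genes in each of the 6 libraries, as CPM + 0.01 on a log axis (blue, Control; orange, Hdac4-knockdown). All myoblast and proliferation markers lie lower in Hdac4-knockdown, while Col1a1 and Sp7 lie higher.

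Among the other lists, neural or glial markers were lower in 3 of 3 tested of 5 (588 to 604 CPM in Control, 72.2 to 82.8 CPM in Hdac4-knockdown), with the glial factor Sox10 at 0 in every library. The neurofilament genes Nefl and Nefm were at 250 and 181 CPM in Control and at 0.0319 and 0.359 CPM in Hdac4-knockdown. Chondrocyte markers were higher in 2 of 3 tested of 4 (125 to 128 CPM and 168 to 186 CPM), with the cartilage gene Acan at 0. Of the 4 adipocyte markers only Pparg was tested, and it was lower (list sums 27.3 to 29.6 CPM and 3.07 to 4.52 CPM). Endothelial and leukocyte markers stayed at low summed levels, at 0.262 to 0.421 CPM and 1.60 to 2.59 CPM in Control and 2.81 to 3.16 CPM and 2.82 to 3.20 CPM in Hdac4-knockdown, and 1 gene of each list was called higher (Pecam1 and Csf1r). Pecam1, Csf1r, the chondrocyte marker Col10a1, Nefl and Nefm passed the count filter only through the group in which they were higher.

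Within the BMP group, Bmp4 and Smad6 were higher in Hdac4-knockdown, and Bmpr1a, Grem1, Nog, Id1 and Id2 were lower. Id3 was not called. The 2 higher and 5 lower members of 8 tested stand beside backgrounds of 38.0% and 37.1% of all genes. Beyond a log2 fold change of 1 there were 1 higher member, Bmp4, and 2 lower members, Nog and Id2, beside backgrounds of 16.5% and 10.6%. Nog is counted among the lower members although it passed the count filter only through Control. Bmp4 is likewise counted among the higher members although it passed only through Hdac4-knockdown. The median log2 fold change of the 8 tested members was -0.18, and that of all tested genes was 0.014. The libraries of the groups did not overlap for 7 of the 8 tested members, beside 76.8% of all tested genes. For each of these 7 the two-sided exact permutation test gave p = 0.1, the smallest value that 3 libraries against 3 allow, so the calls rest on the edgeR fit across all genes.

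**Figure D2:**
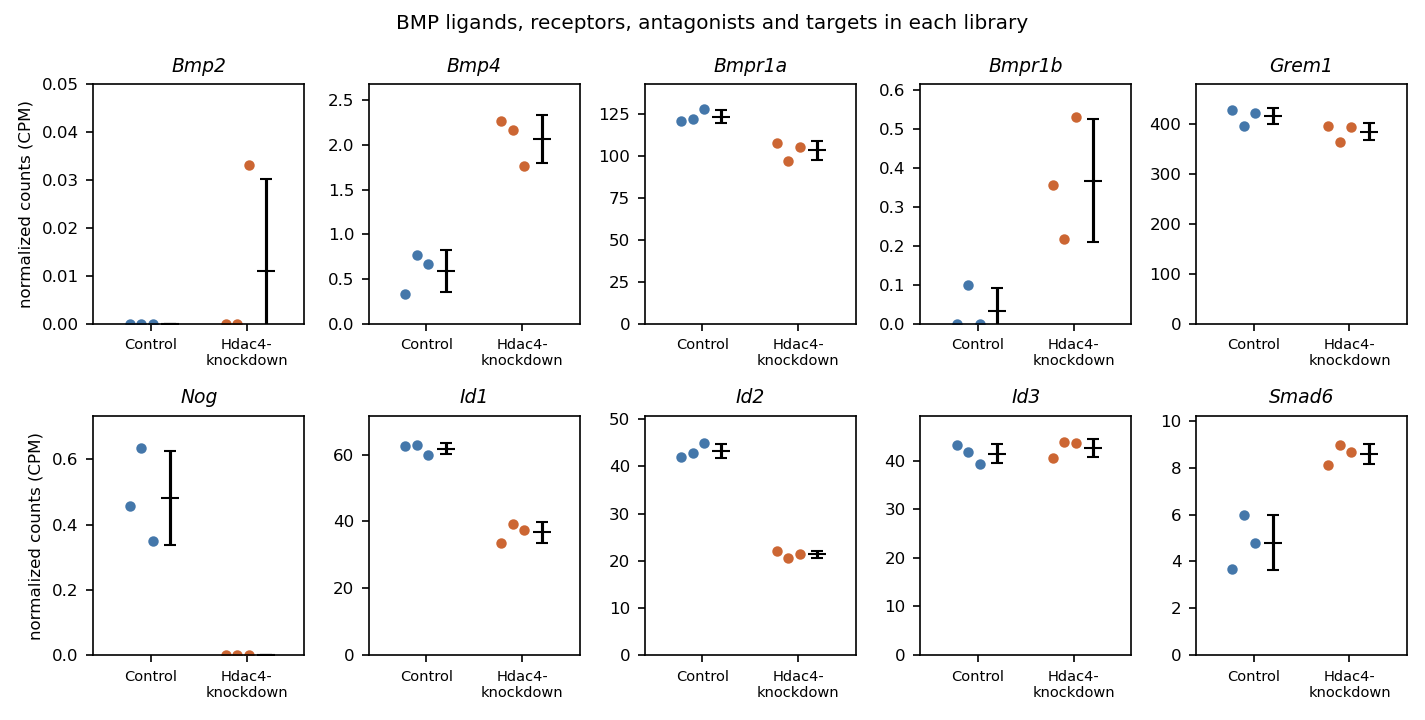
CPM of each of the 10 BMP genes in each library (points), with the mean and SD of 3 libraries (black), on linear axes from 0. Nog is at 0 in all 3 Hdac4-knockdown libraries, Bmp4, Bmpr1b and Smad6 lie higher there, Id1 and Id2 lie lower, and Id3 overlaps between the groups.

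Ligand transcripts were scarce. Bmp2 (ENSMUSG00000027358, chromosome 2, 133552159 to 133562885), a strong inducer of bone formation, had 0 reads in each Control library and 0, 0 and 1 reads in the Hdac4-knockdown libraries. Both groups lay below the floor of 3 counts per library, which corresponds to 0.101 CPM in Control and 0.0965 CPM in Hdac4-knockdown, so no difference was detectable at this depth. Floors and counting intervals cover counting error only.

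Bmp4 (ENSMUSG00000021835, chromosome 14, 46383520 to 46390669), the other ligand of the group, had 10, 23 and 19 reads in the Control libraries and 70, 70 and 53 reads in the Hdac4-knockdown libraries. In CPM these were 0.327, 0.768 and 0.667 against 2.26, 2.17 and 1.76. Every Hdac4-knockdown library lay above every Control library, although the level remained low in both groups. The mean rose from 0.587 ± 0.231 CPM to 2.07 ± 0.267 CPM, which was 3.52-fold (log2 fold change 1.81, SE 0.296, adjusted p = 1.73e-05 by edgeR). Control replicate 1, with 10 reads, lay just below the cutoff of the count filter. Bmp4 thus passed that filter only through Hdac4-knockdown, where it was higher, so this adjusted p is not taken as support. With the filter of 10 counts in every library, which Bmp4 met in both groups, the log2 fold change was 1.85 (adjusted p = 7.98e-06 by edgeR). The reads carry no strand, and 89 of the 2248 exon bases of Bmp4 are shared with Gm15217.

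The type I receptors differed in level, and of Bmpr1a and Bmpr1b only Bmpr1a passed the count filter. Bmpr1a (ENSMUSG00000021796, chromosome 14, 34410734 to 34503341), a broadly expressed BMP receptor, was at 121, 122 and 128 CPM in Control and 108, 97.0 and 105 CPM in Hdac4-knockdown. The groups did not overlap, but the difference was small. The mean in Hdac4-knockdown, 103 ± 5.61 CPM, was 83.7% of the Control mean of 123 ± 4.04 CPM (log2 fold change -0.26, SE 0.0479, adjusted p = 7.94e-05 by edgeR), with 290 of 6351 exon bases shared with Gm17110.

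Bmpr1b (ENSMUSG00000052430, chromosome 3, 141837136 to 142169425), a receptor known from cartilage formation, had 0, 3 and 0 reads in Control and 11, 7 and 16 reads in Hdac4-knockdown. Its libraries did not overlap between the groups, but it did not pass the count filter. Summed over libraries, 3 reads stood against 34, a ratio of 10.8 at equal depth with an exact 95% interval of 3.40 to 55.0. When every gene with at least 1 count was kept in the edgeR fit, its log2 fold change was 3.27 (SE 0.881, adjusted p = 6.52e-04). The median log2 fold change of all genes kept in that fit was 0.252.

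Per length, Grem1 was the most abundant of the 10 genes and Nog was among the scarce ones. Grem1 (ENSMUSG00000074934, chromosome 2, 113746164 to 113758646), whose secreted product binds Bmp2 and Bmp4, was at 427, 396 and 422 CPM in Control and 395, 364 and 394 CPM in Hdac4-knockdown. The lowest Control library lay just above the highest Hdac4-knockdown library. The means were 415 ± 16.5 CPM and 384 ± 17.8 CPM (log2 fold change -0.11, SE 0.0431, adjusted p = 0.0260 by edgeR). This call was lost in 6 of 14 alternatives (adjusted p = 0.0623 to 0.656), among them leaving out Control replicate 1 (-0.10, adjusted p = 0.0796), Control replicate 3 (-0.11, adjusted p = 0.0623) or Hdac4-knockdown replicate 2 (-0.071, adjusted p = 0.102), all with the same edgeR test.

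Nog (ENSMUSG00000048616, chromosome 11, 89300638 to 89302332) encodes noggin, which binds BMP ligands and keeps them from their receptors. It had 14, 19 and 10 reads in the Control libraries and 0 reads in each Hdac4-knockdown library. Control libraries thus lay at 0.458, 0.635 and 0.351 CPM (0.481 ± 0.143 CPM), all above the floor of 0.0965 CPM that 3 counts per Hdac4-knockdown library allow. The level was lower in Hdac4-knockdown (adjusted p = 1.19e-05 by edgeR), and the Control mean was 4.99 times that floor. This ratio does not include the spread of the Control libraries. Nog passed the count filter only through the group in which it was higher, so its adjusted p is not taken as support.

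The Id genes did not move together. Id1 (ENSMUSG00000042745, chromosome 2, 152736251 to 152737410), a standard readout of BMP signalling, was at 62.7, 62.9 and 59.8 CPM in Control and 33.4, 39.3 and 37.4 CPM in Hdac4-knockdown. The groups were far apart relative to their spread. The mean fell from 61.8 ± 1.74 CPM to 36.7 ± 3.00 CPM, or 59.4% of Control (log2 fold change -0.75, SE 0.0599, adjusted p = 8.01e-10 by edgeR).

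Id2 (ENSMUSG00000020644, chromosome 12, 25093799 to 25097140), which also binds bHLH factors of the E protein class, was at 41.9, 42.9 and 44.9 CPM in Control and 22.1, 20.6 and 21.3 CPM in Hdac4-knockdown. The highest Hdac4-knockdown library was well below the lowest Control library. The mean fell from 43.2 ± 1.50 CPM to 21.3 ± 0.751 CPM, or 49.4% of Control (log2 fold change -1.02, SE 0.0609, adjusted p = 8.83e-12 by edgeR).

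Id3 (ENSMUSG00000007872, chromosome 4, 136143497 to 136145755), the remaining Id member, was at 43.2, 41.7 and 39.4 CPM in Control and 40.5, 43.8 and 43.7 CPM in Hdac4-knockdown. The groups overlapped. The means were 41.4 ± 1.95 CPM and 42.7 ± 1.84 CPM, and the log2 difference of 0.04 was below its SE of 0.0576 (adjusted p = 0.526 by edgeR, exact permutation p = 0.5). With upper quartile normalization the difference was 0.13 and passed the test (adjusted p = 0.0496 by edgeR), and without Control replicate 3 it was -0.0075 (adjusted p = 0.924).

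Id4, the other gene of the family, belongs to the list of further BMP targets, which was chosen with earlier results of these data known. It was at 2.00, 2.14 and 1.61 CPM in Control and 53.2, 48.9 and 49.3 CPM in Hdac4-knockdown, with no overlap. Its mean rose 26.3-fold, from 1.92 ± 0.271 CPM to 50.5 ± 2.35 CPM (log2 fold change 4.71, SE 0.0956, adjusted p = 2.67e-19 by edgeR), and 171 of its 3849 exon bases are shared with A330033J07Rik and Gm49291. Per length, Id1, Id2 and Id3 together reached 91.9 to 95.4 FPKM in Control and 60.5 to 66.7 FPKM in Hdac4-knockdown. With Id4 added, the sums were 92.3 to 95.9 FPKM and 74.3 to 79.5 FPKM. The makeup of the Id transcript pool differed accordingly. The share of Id1 was 56.3% in Control and 40.9% in Hdac4-knockdown, that of Id2 18.8% and 11.3%, that of Id3 24.4% and 30.8%, and that of Id4 0.525% and 17.0%.

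**Figure D3:**
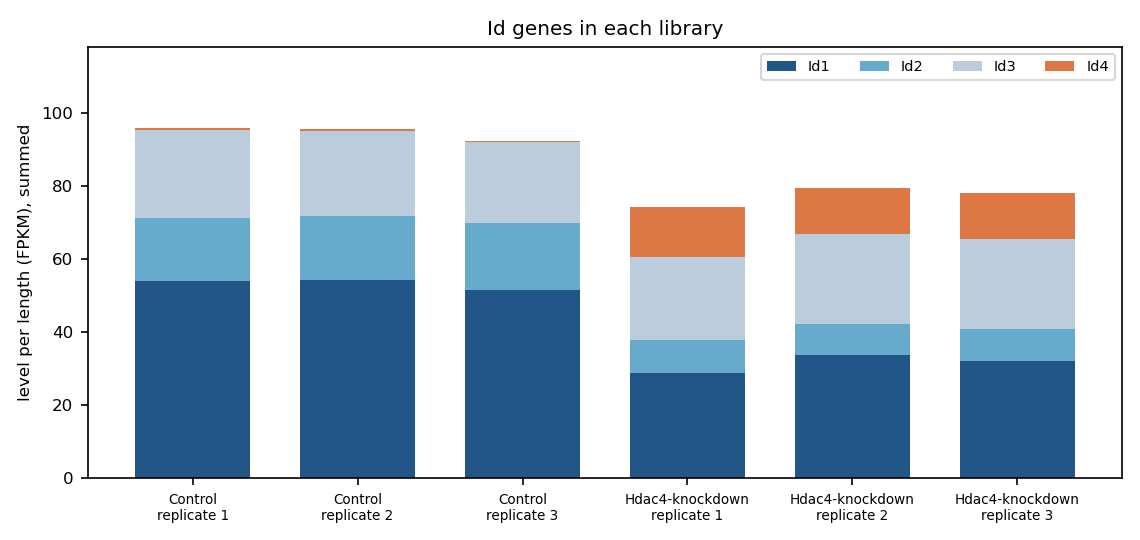
Stacked levels of Id1, Id2, Id3 and Id4 in each library, in FPKM. The Control bars reach 92.3 to 95.9 FPKM and consist almost wholly of Id1, Id2 and Id3, whereas the Hdac4-knockdown bars reach 74.3 to 79.5 FPKM and include a visible Id4 part.

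Smad6 (ENSMUSG00000036867, chromosome 9, 63953076 to 64022059), the feedback inhibitor whose promoter window holds the palindrome shown above, was at 3.67, 5.98 and 4.77 CPM in Control and 8.11, 8.97 and 8.67 CPM in Hdac4-knockdown. All Hdac4-knockdown libraries lay above all Control libraries. The mean rose from 4.81 ± 1.16 CPM to 8.58 ± 0.434 CPM, which was 1.79-fold (log2 fold change 0.84, SE 0.142, adjusted p = 2.76e-05 by edgeR). Smad6 thus differed in the opposite direction from Id1 and Id2.

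Ranked by FPKM, which allows levels of different genes to be compared, the Control order was Grem1 (100 FPKM), Id1 (53.3), Id3 (23.1), Bmpr1a (19.4), Id2 (17.7), Smad6 (1.50), Nog (0.284), Bmp4 (0.261), Bmpr1b (0.0056) and Bmp2 (0). Libraries of Nog and Bmp4 overlapped, as did those of Bmpr1b and Bmp2, and all other neighbours in this order were separate. In Hdac4-knockdown the order of the 6 most abundant genes was the same, from Grem1 (92.7 FPKM) through Id1 (31.6), Id3 (23.8), Bmpr1a (16.3) and Id2 (8.76) to Smad6 (2.68). Bmp4 (0.919 FPKM), Bmpr1b (0.0617), Bmp2 (0.0031) and Nog (0) followed, and only Bmp2 and Nog overlapped.

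The rest of the pathway, together with 5 bHLH partners of the Id proteins, was read from 6 lists with 64 genes. All 64 are called pathway genes below, and 41 of them passed the count filter. The lists were chosen with earlier results of these data known, which limits the comparison with the backgrounds. In Hdac4-knockdown, 23 were higher, 13 lower and 5 not called, beside backgrounds of 38.0% and 37.1%. Beyond a log2 fold change of 1, 12 were higher and 3 lower, beside 16.5% and 10.6%. The median log2 fold change was 0.29, against 0.014 over all genes. The counts and backgrounds include genes, such as Dlx5, that passed the count filter only through the group in which they were higher. None of the 13 other BMP and GDF ligands passed the filter, and the highest count of any of them in any library was 15.

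Of the 10 further receptors and co-receptors, 9 were tested, with 4 higher, 4 lower and 1 not called. The co-receptor endoglin (Eng) had the largest rise, from 1.67 to 4.01 CPM (log2 fold change 1.27), and hemojuvelin (Hjv) the largest fall, from 2.31 to 0.490 CPM (-2.22). The type I receptor Acvr1 was the most abundant per length, at 15.7 FPKM in Control and 20.0 FPKM in Hdac4-knockdown (0.35). Acvr1 was thus called in the opposite direction from Bmpr1a.

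Extracellular antagonists and modulators other than Grem1 and Nog numbered 21, and of 12 tested, 8 were higher, 2 lower and 2 not called. Bmp1, a protease that cleaves chordin and is no BMP ligand, showed the largest fall of the list, from 261 to 228 CPM (log2 fold change -0.19), a call lost under upper quartile normalization (adjusted p = 0.0770 by edgeR). Fstl1, the most abundant per length, was at 84.6 and 79.0 FPKM (-0.10, adjusted p = 0.0436 by edgeR, a call lost in 7 alternatives), and its libraries overlapped. Chordin (Chrd), chordin-like 1 (Chrdl1) and follistatin (Fst), named after their values were seen, were at 2.38, 0.701 and 3.82 CPM in Control and 9.49, 28.3 and 14.4 CPM in Hdac4-knockdown.

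All 9 Smads and intracellular regulators were tested, with 6 higher, 2 lower and 1 not called. Smad9 had the largest rise, from 2.07 to 6.47 CPM (log2 fold change 1.64), and Smad5 the largest fall, from 129 to 91.9 CPM (-0.49). Both are receptor-activated Smads of the BMP branch. The ubiquitin ligase gene Smurf1 was the most abundant per length (33.8 and 30.5 FPKM, -0.15), and its call was lost with library size alone and upper quartile normalization (adjusted p = 0.0739 and 0.257 by edgeR). Smad7, the other inhibitory Smad and named after its values were seen, was higher like Smad6, at 36.9 and 82.8 CPM (1.16), while Smad1 was not called (-0.02).

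Among the 6 further BMP targets, 3 were higher, 2 lower and 1 not called. The osteoblast homeobox gene Dlx5 had the largest rise, from 0.191 to 8.32 CPM (log2 fold change 5.41), and the Notch and BMP target Hey1 the largest fall, from 8.34 to 3.17 CPM (-1.40). Dlx5 had 4, 8 and 5 reads in the Control libraries and passed the count filter only through Hdac4-knockdown, where it was higher. Id4 was the most abundant of the list per length over all libraries, through Hdac4-knockdown (13.1 FPKM), whereas in Control it was at 0.498 FPKM and Msx1 led the list at 3.54 FPKM. Of 5 bHLH partners of the Id proteins, 2 were higher and 3 lower. Twist1, a mesenchymal bHLH factor, was at 2.03 CPM in Control and 36.3 CPM in Hdac4-knockdown (4.16), Twist2 at 3.83 and 2.16 CPM (-0.83), and the E protein gene Tcf3, the most abundant per length, at 51.5 and 43.2 FPKM (-0.25).

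**Figure D4:**
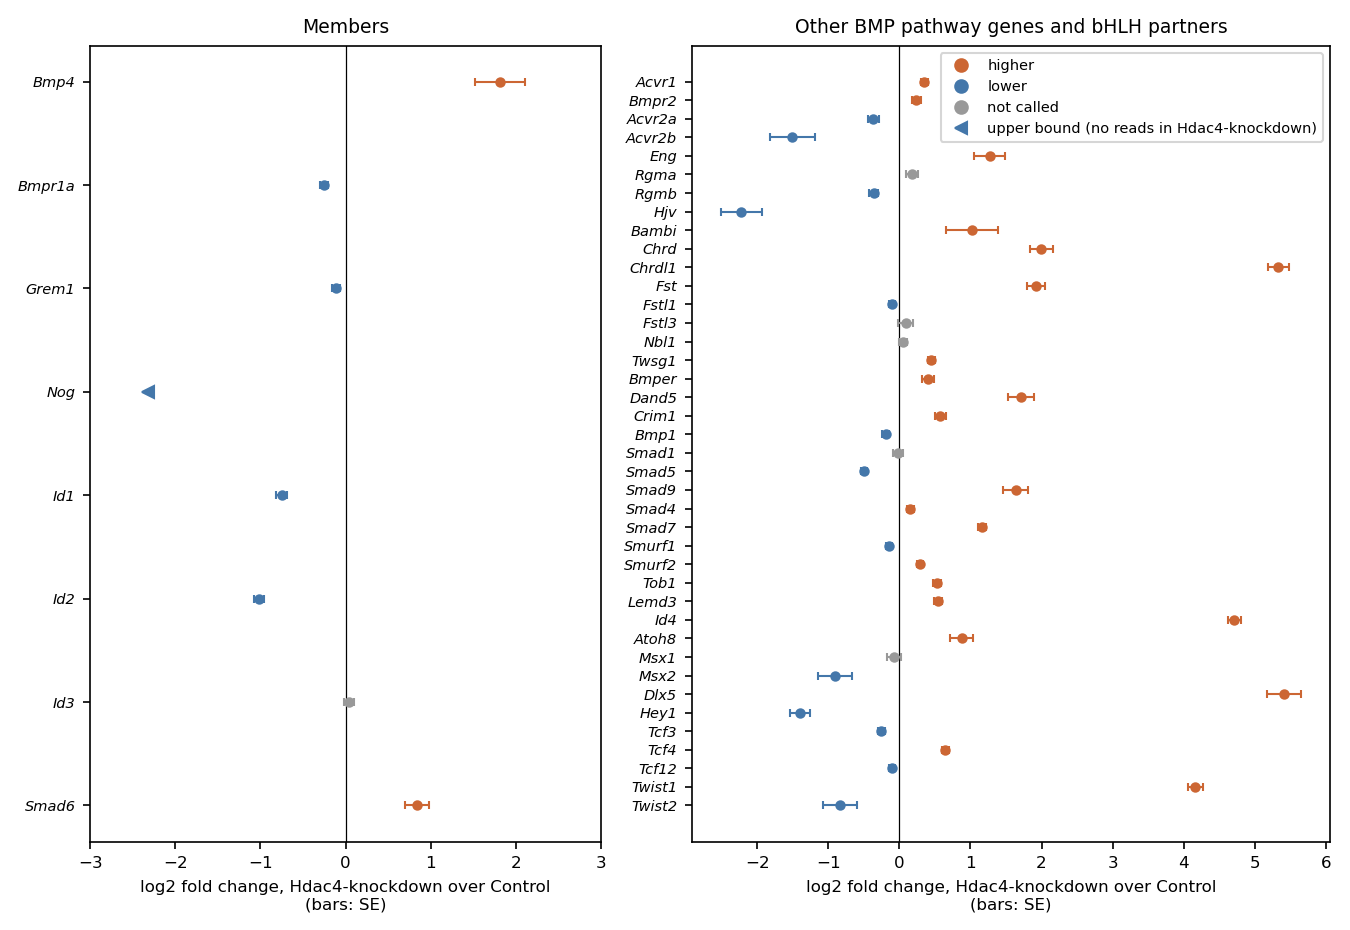
Log2 fold changes (Hdac4-knockdown over Control) with SE bars derived from the edgeR test, coloured by call. The left panel holds the tested members and the right panel other tested genes of the pathway lists. The triangle for Nog is the floor of 3 counts per Hdac4-knockdown library over the Control mean. Bmp4 and Smad6 lie to the right of 0 on the left panel, and Dlx5, Chrdl1, Id4 and Twist1 lie above 4 on the right panel.

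The genes whose profile over the 6 libraries was closest to a member were sought for Smad6 and Id2, the members with the largest rise and fall among those averaging 100 counts or more per library. The distance was Euclidean, between log2 CPM profiles each centred on its own mean. For Smad6 the closest genes were Zfp93 (0.160), 5830408C22Rik (0.188) and Dbndd1 (0.194). For Id2 they included Plk4 (0.0655) and Epb41l3 (0.0659). With 2 groups so far apart, such a distance mainly compares the size of the group difference.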

How the data were processed

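Poly-A RNA of 6 MC3T3-E1 libraries was sequenced as paired Illumina reads with an unstranded kit. The authors deposited raw counts of reads per gene. Per the submitters' processing notes, FastQC, STAR 2.7.3a, HTSeq 0.12.4 and the mm10 build were used, and their parameters are not given in the sources used here. The 5 summary lines of each table, 14.3% to 15.0% of reads, were left out. Symbols, positions and exon lengths came from GENCODE M21 (GRCm38), which held 53706 of 53801 identifiers.

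The quasi-likelihood F test of edgeR 4.0.16 (R 4.3.3) was applied to the counts after TMM normalization and filterByExpr at its default settings, and p-values were adjusted by Benjamini-Hochberg over all tested genes. Both call thresholds, 0.05, follow the study's methods. The SE of an edgeR log2 fold change was its absolute value divided by the square root of the F statistic. CPM used TMM-adjusted library sizes, and FPKM divided CPM by exon kilobases. The exact permutation tests were two-sided, on log2(CPM + 1). Alternatives were other normalizations (upper quartile, size factors of DESeq2, none beyond library size), a filter of 1 count in all or of 10 counts per library, the tests of DESeq2 1.42.0 and of limma-voom (limma 3.58.1), a replicate block, a log2 threshold of 0.5, and leaving out each library in turn.

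Named genes were the members, Hdac4, the called gene with the largest rise and fall and the most abundant tested gene of each pathway list, markers that touch a result, and the 3 genes closest to 2 members. Some genes that this rule names are not reported here. Members and lists were chosen with earlier results of these data known. RefSeq gave promoter windows. Gene pairs with shared exon bases are less certain, since strand was not recorded. Figures were drawn with matplotlib 3.10.9.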

Additional observations from a re-analysis of the deposited data

Results flagged for a closer look

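Bmpr1b, which was below the count filter of the fit, had a mean of 11.3 counts per Hdac4-knockdown library and 1.0 count per Control library, and it stood out as a signal outside the tested genes that lay above the Control level.

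Reads outside annotated genes, which enter no comparison of genes, made up 4.79% ± 0.241 (SD, n = 3) of reads in Hdac4-knockdown libraries and 3.28% ± 0.122 (SD, n = 3) in Control libraries.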

How the results depend on the processing

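Bmp4, Bmpr1a, Id1, Id2 and Smad6 kept their direction and their call under 14 alternatives each. For Bmp4 this includes the filter of 10 counts in every library, which it met in both groups. Nog also kept both under the 13 alternatives in which it could be tested, but it entered each through Control alone. The calls of Nog are therefore not taken as support. The members called lower went from 5 to 3 with at least 10 counts in every library and to 3 with a log2 threshold of 0.5. Members higher beyond a log2 fold change of 1 went from 1 to 2 with the filter of 1 count, which admitted Bmpr1b, and ranged from 1 to 3 when a library was left out, moving without Control replicate 1, 2 or 3 or Hdac4-knockdown replicate 2. Members lower beyond 1 went from 2 to 1 with library size alone or upper quartile normalization and to 0 with at least 10 counts in every library, and ranged from 1 to 2 when a library was left out (1 without Hdac4-knockdown replicate 2). Pathway genes called lower went from 13 to 5 with the threshold of 0.5. Signs turned for 4 genes near 0 that were not called. Leaving out each library gave -0.0075 (without Control replicate 3) to 0.085 for Id3, -0.029 (without Hdac4-knockdown replicate 2) to 0.22 for Fstl3, -0.064 to 0.017 (without Control replicate 3) for Smad1 and -0.11 to 0.0044 (without Hdac4-knockdown replicate 1) for Msx1. Smad1 also turned with library size alone (0.037), upper quartile normalization (0.069), or at least 10 counts (0.018), and Msx1 with upper quartile normalization (0.016). Where construction does not show it, the cause was not tested.

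Upper quartile normalization moved the median log2 fold change of all genes from 0.014 to 0.103, so Grem1 at -0.022 and Id3 at 0.13 under it are to be read against that shift. With the filter of 1 count, the median over the genes it kept was 0.252. With the replicate number as a block, 2 members were called higher and 5 lower, and 23 and 13 of the other pathway genes, as without the block. Deviations of same-numbered libraries correlated at -0.011, 0.027 and 0.017, so no shared deviation was seen. Whether the numbers pair the libraries is not stated in the labels, and these correlations cannot decide it. Depth limits the statements on Bmp2, Bmpr1b, Nog and Bmp4, which had at most 70 reads in any library.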
